A study of Mus musculus with 9 samples.

Results

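Snhg1, Snhg3, Snhg4, Snhg5, Snhg6, Snhg12, Gas5 and Dancr are long non-coding RNAs (lncRNAs) whose genes carry small nucleolar RNAs (snoRNAs) within them. These 8 genes were chosen by name from the 5385 features of a deposited table of lncRNA levels, called the lncRNA table here. Each also has a row under the same identifier in a second deposited table of 39336 features of all gene types, called the mRNA table, and was read there as a check. RNA of male germ cells from the testis of mice that the labels of all 9 libraries call adult was sequenced, in 3 libraries of spermatogonia (types A and B, the mitotic cells), 3 of pachytene spermatocytes (in meiotic prophase) and 3 of round spermatids (haploid cells before they elongate). The labels name no strain, genotype or treatment and do not say how the cells were isolated or whether replicates came from separate animals, so a p-value measures the spread between these libraries. By its title, the series asks which lncRNAs are expressed during spermatogenesis.

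A snoRNA host gene is transcribed and spliced like a coding gene, and its snoRNAs are trimmed out of the introns. Box C/D snoRNAs guide ribose methylation and H/ACA snoRNAs guide pseudouridylation of ribosomal RNA, and a few of both classes act in the cleavage of its precursor. In mammalian cells the spliced RNA of several hosts, Gas5 and Snhg1 among them, is known to be degraded by nonsense-mediated decay, so the steady level of the host RNA and the yield of its snoRNAs need not move together. Many hosts start transcription in a tract of pyrimidines, as genes for ribosomal proteins do.

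In the lncRNA table, all 8 hosts were lower in round spermatids than in spermatogonia, by 2.47-fold (Gas5) to 9.01-fold (Snhg1). Most of the fall of Snhg1 and Snhg4 lay between spermatogonia and pachytene spermatocytes, whereas Snhg3 and Snhg5 passed the test between pachytene spermatocytes and round spermatids and not before. In the mRNA table, Snhg1, Snhg4, Snhg6 and Snhg12 fell over both steps, and Snhg3 rose 12.1-fold from spermatogonia to pachytene spermatocytes. Values are in FPKM (fragments counted per kilobase of a transcript and per M, mega, of all fragments), a measure per length that is relative to the rest of the library. In bulk samples, fewer cells of a type and less RNA per cell cannot be told apart.

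The deposited tables do not share a scale. They have 4491 identifiers in common. The scale was read from 76 of these that lie at the same position in both and are not among the 8 hosts. All 76 had at least 1 FPKM in the mRNA table, and more than 0 in the lncRNA table, in all 9 libraries. Their value in the lncRNA table was by median 41.3 to 48.9 times that in the mRNA table in spermatogonia. It was 29.7 to 33.3 times in pachytene spermatocytes and 25.0 to 27.8 times in round spermatids. A feature with the same change in both tables therefore reads as falling more in the lncRNA table. Tests were made within each table, and a setting that puts the lncRNA table on the scale of the mRNA table, chosen after seeing the data, is given where it changes a call. Depth is not stated. As an estimate with no interval, percentile 2 of FPKM times length in kilobases was taken as 1 fragment. It was read over values above 0 of genes with a single transcript of at least 2000 nt. This gives 18.9 to 56.4 M fragments per library in the mRNA table and 0.578 to 1.52 M in the lncRNA table. Of 8 spermatogonial markers such as Zbtb16 and Kit, 8 were lower in pachytene spermatocytes than in spermatogonia, all 8 pachytene markers rose at that step, and all 8 round spermatid markers rose at both. The round spermatid markers summed to 1.20 to 1.83 FPKM in spermatogonia, 1147 to 1323 in pachytene spermatocytes and 12820 to 13360 in round spermatids. For the pachytene markers the sums were 38.3 to 47.5, 8343 to 8541 and 5960 to 6194 FPKM. Only 3 of these 8 were lower in round spermatids than in pachytene spermatocytes, so the last 2 stages share markers. From pachytene spermatocytes to round spermatids 5 of the 8 spermatogonial markers were higher, and their sum went from 316 to 403 FPKM in spermatogonia to 40.5 to 43.7 and then 81.1 to 83.5 FPKM. Gfra1 was at 5.86 to 6.10 FPKM in round spermatids, overlapping its 4.43 to 6.03 FPKM in spermatogonia. Markers of other cells of the testis also moved with the stages. The summed level of 8 Sertoli cell markers in the mRNA table was 1141 to 1351 FPKM in spermatogonia, 267 to 279 in pachytene spermatocytes and 70.3 to 73.4 in round spermatids. That of 6 fibroblast markers was 110.1 to 271 FPKM in spermatogonia, 2.10 to 2.41 in pachytene spermatocytes and 23.8 to 25.4 in round spermatids. For 5 peritubular myoid markers the ranges were 110.4 to 188, 12.7 to 13.7 and 19.1 to 20.9 FPKM, and for 5 endothelial markers 29.9 to 67.7, 4.05 to 5.35 and 8.86 to 11.3 FPKM. For 8 macrophage markers they were 5.67 to 36.9, 1.62 to 2.84 and 20.99 to 25.1 FPKM, for 7 Leydig cell markers 13.4 to 14.9, 88.2 to 96.2 and 18.9 to 27.5 FPKM, and for 5 erythroid markers 114 to 317, 5.44 to 7.08 and 2.16 to 3.55 FPKM. No marker was at 0 in every library of a stage except 1 erythroid gene in pachytene spermatocytes and 2 in round spermatids. Spermatogonia replicate 3 stood at the top of the spermatogonial range for 5 of these lists. Its sum was 271 FPKM for fibroblast markers (137 and 110.1 in replicates 1 and 2), 36.9 for macrophage markers (6.96 and 5.67) and 317 for erythroid markers (125 and 114). Its sums were also the highest for myoid and endothelial markers. For the myoid markers this rested on Des, at 65.8 FPKM in replicate 3 beside 1.76 and 1.33 in replicates 1 and 2. Acta2, Myh11, Cnn1 and Tagln were highest in replicate 1. Spermatogonia replicate 3 was the lowest of its stage for the spermatogonial markers, at 316 FPKM beside 403 and 397. Amh, a hormone gene of immature Sertoli cells, was at 31.1 to 39.1 FPKM in spermatogonia and below 1 FPKM in the other stages. Without spermatogonia replicate 3 the number of hosts that passed was 6, 3 and 8 for the 3 comparisons in the lncRNA table, as with it. All 3 spermatogonial libraries held markers of other cells, so leaving out 1 cannot test the part of these cells. Their part in the levels of the hosts was not tested.

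On GRCm38, the assembly that mm10 names, the lncRNA table places Snhg1 at chr19:8723496-8726442 on the forward strand and Snhg3 at chr4:132348014-132353686 on the reverse strand. Snhg12 lies close to Snhg3, at chr4:132308678-132311024 on the forward strand. Snhg5 lies at chr9:88521050-88522929 and Snhg6 at chr1:9941959-9944118, both on the reverse strand. Gas5 lies at chr1:161034422-161038539 and Dancr at chr5:74093060-74095405, both on the forward strand, and Snhg4 is listed at chr18:35553371-35558316. GENCODE M21 types Snhg6 and Snhg12 as lincRNA and Snhg1, Snhg3, Snhg5, Gas5 and Dancr as processed transcripts, and has no gene named Snhg4.

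Inside the 8 hosts M21 annotates 31 snoRNA features. Rows of the mRNA table exist for 29 of them, 9 in Gas5, 8 in Snhg1, 4 in Snhg12, 2 each in Snhg3, Snhg4 and Snhg5, and 1 each in Snhg6 and Dancr, and none has a row in the lncRNA table.

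The snoRNAs below are those the later results turn on, with the 5′ end first. Snora73a and Snora73b, both inside Snhg3, are copies of the H/ACA snoRNA also called U17, which in yeast and vertebrates acts in an early cleavage of the ribosomal RNA precursor. They lie at chr4:132352775-132352979 and chr4:132352322-132352526 on the reverse strand. Both are 205 nt long and 96.6% identical, and the 7 positions that differ are in capitals, so reads from them can be assigned to the wrong copy.
Snora73a: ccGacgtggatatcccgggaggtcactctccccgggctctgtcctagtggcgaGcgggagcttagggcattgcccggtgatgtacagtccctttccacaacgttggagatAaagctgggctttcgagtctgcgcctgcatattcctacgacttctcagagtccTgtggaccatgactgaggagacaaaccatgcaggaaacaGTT
Snora73b: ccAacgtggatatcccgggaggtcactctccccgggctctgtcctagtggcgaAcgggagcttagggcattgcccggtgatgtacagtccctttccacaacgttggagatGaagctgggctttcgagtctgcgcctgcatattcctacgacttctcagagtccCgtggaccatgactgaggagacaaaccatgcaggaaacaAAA
No exon of the 5 annotated Snhg3 transcripts touches Snora73b, and an exon of 1 of the 5 touches Snora73a.

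Snord22 (chr19:8725866-8725991, forward strand), the snoRNA after which Snhg1 was first named the U22 host gene, is an unusually long box C/D RNA that acts in the processing of ribosomal RNA in Xenopus. Its box D (CTGA) is in capitals, and it lies inside an exon in 3 of the 18 annotated Snhg1 transcripts. Snora26 in Dancr (chr5:74093530-74093650, forward strand) and Snora61 in Snhg12 (chr4:132310240-132310369, forward strand) are H/ACA snoRNAs, with the ACA that precedes their last 3 bases in capitals. Snora26 lies inside an exon in 3 of 4 Dancr transcripts and Snora61 in 4 of 10 Snhg12 transcripts.
Snord22: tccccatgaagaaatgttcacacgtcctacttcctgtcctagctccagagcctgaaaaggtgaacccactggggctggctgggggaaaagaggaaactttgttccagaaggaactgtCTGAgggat
Snora26: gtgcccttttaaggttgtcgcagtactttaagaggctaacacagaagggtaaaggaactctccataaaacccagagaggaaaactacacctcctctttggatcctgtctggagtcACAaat
Snora61: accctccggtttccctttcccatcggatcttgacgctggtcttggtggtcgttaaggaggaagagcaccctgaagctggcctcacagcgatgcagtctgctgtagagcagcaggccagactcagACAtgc
Snord47 in Gas5 (chr1:161038082-161038158, forward strand) and Snord87 in Snhg6 (chr1:9942463-9942549, reverse strand) stand for the short box C/D class, with box C (GTGATGA or ATGATGA) and box D (CTGA) in capitals.
Snord47: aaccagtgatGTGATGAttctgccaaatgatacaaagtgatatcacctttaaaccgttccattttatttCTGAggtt
Snord87: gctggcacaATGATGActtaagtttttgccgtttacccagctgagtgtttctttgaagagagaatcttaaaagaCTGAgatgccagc
All 7 sequences are from the GENCODE M21 transcripts. Searched on the strand of the RNA, ACA before the last 3 bases is found in 18.3% of the 1507 snoRNA transcripts of M21, ATGATGA or GTGATGA in 23.2% and CTGA in 79.5%.

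The starts of 6 hosts are in the RefSeq promoter table for GRCm38.p6, and are shown because a pyrimidine tract at the start is a known mark of these genes. Each line runs from 50 bases before the RefSeq start to 50 bases from it, on the strand of the gene. RefSeq and M21 starts can differ: that of Gas5 in RefSeq lies inside the locus given above. Capitals mark a run of at least 5 pyrimidines (C or T) that begins with C within 5 bases of the start.
Snhg3 start: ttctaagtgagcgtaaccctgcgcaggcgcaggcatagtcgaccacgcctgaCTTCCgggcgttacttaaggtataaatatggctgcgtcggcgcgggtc
Snhg12 start: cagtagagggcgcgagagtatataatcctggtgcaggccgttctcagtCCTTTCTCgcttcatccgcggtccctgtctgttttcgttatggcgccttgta
Gas5 start: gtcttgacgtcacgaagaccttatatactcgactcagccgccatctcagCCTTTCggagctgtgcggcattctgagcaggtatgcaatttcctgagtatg
Snhg1 start: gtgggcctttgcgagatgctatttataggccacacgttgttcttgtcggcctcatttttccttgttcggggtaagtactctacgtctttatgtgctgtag
Snhg5 start: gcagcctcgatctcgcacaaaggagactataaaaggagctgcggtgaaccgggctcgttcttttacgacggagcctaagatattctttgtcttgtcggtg
Dancr start: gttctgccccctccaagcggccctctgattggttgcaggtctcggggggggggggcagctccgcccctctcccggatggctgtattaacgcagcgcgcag
The windows lie at chr4:132353637-132353736 (reverse), chr4:132308628-132308727 (forward), chr1:161035116-161035215 (forward), chr19:8723437-8723536 (forward), chr9:88522848-88522947 (reverse) and chr5:74093010-74093109 (forward). The run is found in 3 of the 6 hosts shown, Snhg3, Snhg12 and Gas5, and in 18.3% of the 32851 promoters of the table. The Snhg1 start holds the run tttttcctt, which begins with T and so is not marked. From spermatogonia to pachytene spermatocytes, Snhg3, Snhg12 and Gas5 changed by -0.088, -1.14 and -1.07 on the log2 scale. Snhg1, Snhg5 and Dancr changed by -3.04, -0.39 and -1.20. Whether the marked run bears on the change between stages was not tested.

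In spermatogonia, the hosts were among the most abundant features of the lncRNA table per length. Snhg4 was the highest of the 8, at rank 10 of the 4009 features tested, by mean FPKM, followed by Gas5 (rank 21), Snhg3 (26), Snhg1 (28), Snhg5 (44), Snhg12 (49), Snhg6 (68) and Dancr (230). The libraries of Snhg4 did not overlap those of Gas5, whereas Gas5 and Snhg3, and Snhg3 and Snhg1, overlapped in their ranges. In pachytene spermatocytes Snhg3 was the highest (rank 44), followed by Gas5 (62), Snhg5 (111), Snhg4 (135), Snhg12 (219), Snhg6 (336), Snhg1 (380) and Dancr (800). There, the ranges of Snhg5 and Snhg4 and those of Snhg6 and Snhg1 overlapped. In round spermatids Gas5 was the highest (rank 97), and Snhg4 (148), Snhg3 (248), Snhg5 (350), Snhg1 (601), Snhg6 (623), Snhg12 (708) and Dancr (1321) followed. Ranges overlapped there between Gas5 and Snhg4, Snhg4 and Snhg3, Snhg3 and Snhg5, and Snhg1 and Snhg6.

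The summed level of the 8 hosts in the lncRNA table was 24246 ± 1585 FPKM in spermatogonia (SD, n = 3), 8107 ± 879 in pachytene spermatocytes and 5161 ± 1126 in round spermatids. Snhg4 supplied 44.3% ± 7.35 of that sum in spermatogonia, 11.8% ± 1.14 in pachytene spermatocytes and 24.2% ± 4.97 in round spermatids. Snhg3 supplied 11.5% ± 1.70, 32.2% ± 2.14 and 14.7% ± 1.07 in the same order. Gas5 supplied 19.4% ± 5.95, 26.8% ± 3.29 and 36.0% ± 0.756. In this table the host with the largest share was thus another one in each stage. The order depends on the table: in the mRNA table Gas5 was the highest host in spermatogonia (107 ± 3.12 FPKM, beside 11.5 to 12.8 for Snhg4) and in round spermatids (60.3 ± 4.31 FPKM), and in pachytene spermatocytes its range overlapped that of Snhg3 (70.0 ± 3.82 and 72.5 ± 3.97 FPKM).

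**Figure D1:**
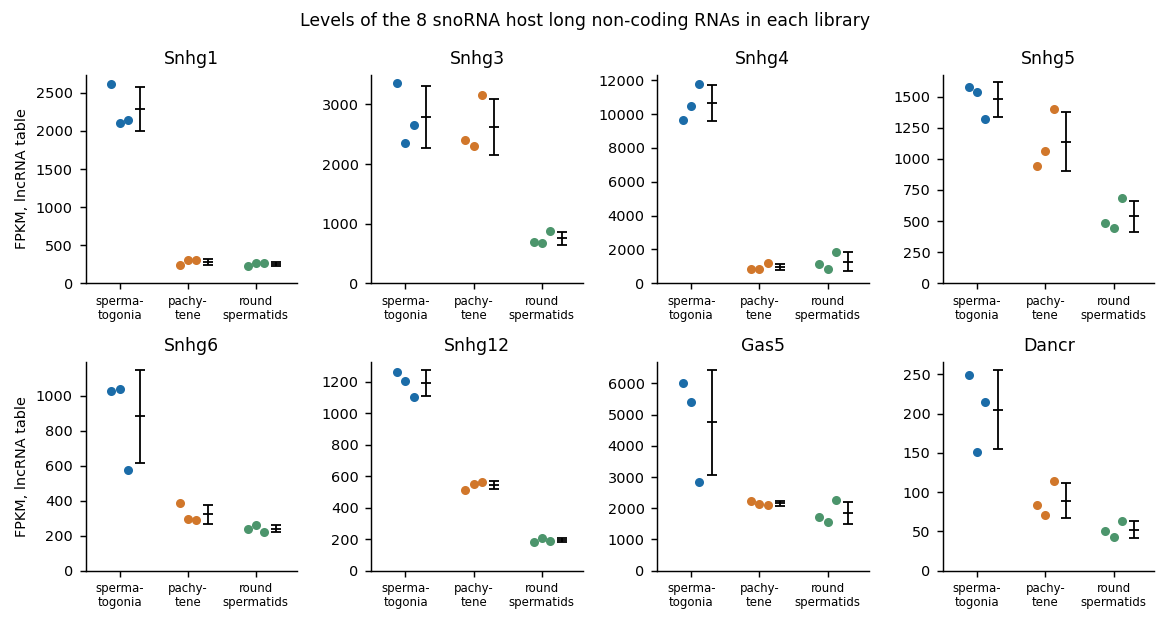
FPKM of each host in the lncRNA table (y axis, from 0, own scale per panel) in the 3 libraries of each stage (points), with the mean and SD beside them (bars). Spermatogonia are highest for Snhg1, Snhg4, Snhg6, Snhg12, Gas5 and Dancr, whereas Snhg3 and Snhg5 overlap between spermatogonia and pachytene spermatocytes and are lower in round spermatids.

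From spermatogonia to pachytene spermatocytes, 6 of the 8 hosts fell in the lncRNA table, none rose and 2 did not pass the test (limma on log2(FPKM + 0.1), adjusted p under 0.05 over all 4009 features and at least 2-fold). Of all features of that table, 25.0% were lower by the same rule and 31.6% were higher. The median log2 fold change was -1.17 over the 8 hosts and -0.019 over all features.

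Snhg4, host of Snora74a, a H/ACA snoRNA, had the steepest fall. Its levels were 9678, 10496 and 11791 FPKM in spermatogonia and 833, 858 and 1191 FPKM in pachytene spermatocytes, so every pachytene library was far below every spermatogonial one. The log2 fold change was -3.49 (SE 0.303, adjusted p = 1.84e-05). Snhg1 was listed at 2621, 2102 and 2147 FPKM in spermatogonia and at 233, 300.1 and 305 FPKM in pachytene spermatocytes. Its groups also stood well apart, with a log2 fold change of -3.04 (SE 0.175, adjusted p = 1.45e-06).

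The other 4 hosts that fell did so by 2.10-fold to 2.66-fold. Snhg6, host of Snord87, was at 1031, 1043 and 576 FPKM in spermatogonia and at 387, 293 and 289 FPKM in pachytene spermatocytes. Spermatogonia replicate 3 was the lowest of its group and still above all pachytene libraries, and the log2 fold change was -1.41 (SE 0.257, adjusted p = 0.00161). Snhg12, which carries 3 H/ACA snoRNAs with rows above 0, went from 1262, 1206 and 1102 FPKM to 513, 550.3 and 560.3 FPKM. The libraries of each stage lay close together and the stages did not overlap (log2 fold change -1.14, SE 0.138, adjusted p = 1.51e-04).

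Dancr, named for opposing differentiation in human epidermal progenitors, was at 250, 151 and 215 FPKM in spermatogonia and at 82.9, 70.3 and 114 FPKM in pachytene spermatocytes. It was the lowest host in every stage, and its groups did not overlap (log2 fold change -1.20, SE 0.277, adjusted p = 0.0058). Gas5, known for its accumulation in growth-arrested cells, was at 6022, 5410 and 2838 FPKM in spermatogonia and at 2237, 2126 and 2105 FPKM in pachytene spermatocytes. Here too spermatogonia replicate 3 was far below the other libraries of its stage, though still above all pachytene libraries, and this is the library with the highest sums of fibroblast, macrophage and erythroid markers. Without it the log2 fold change was -1.41 for Gas5 and -1.70 for Snhg6. With all libraries that of Gas5 was -1.07 (SE 0.294, adjusted p = 0.0132), and without spermatogonia replicate 1 or 2 it was -0.86 or -0.94, short of the 2-fold threshold. With the lncRNA table put on the scale of the mRNA table, the values of Snhg6, Snhg12, Gas5 and Dancr were -0.87, -0.59, -0.53 and -0.66, all short of that threshold, while Snhg1 (-2.50) and Snhg4 (-2.94) still passed.

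Snhg3 and Snhg5 overlapped between these stages. Snhg3 was listed at 3365, 2349 and 2653 FPKM in spermatogonia and at 2407, 2301 and 3152 FPKM in pachytene spermatocytes, and the groups were intermingled (log2 fold change -0.088, SE 0.212, adjusted p = 0.737). Snhg5, host of the U50 snoRNAs Snord50a and Snord50b, was at 1580, 1536 and 1318 FPKM and then at 946, 1064 and 1405 FPKM. Pachytene replicate 3 lay within the spermatogonial range (log2 fold change -0.39, SE 0.223, adjusted p = 0.161). On the scale of the mRNA table the signs turned, to 0.45 for Snhg3 and 0.15 for Snhg5, and Snhg3 without spermatogonia replicate 1 was at 0.055. Quantile normalization took Snhg5 to -1.36, past the threshold.

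**Figure D2:**
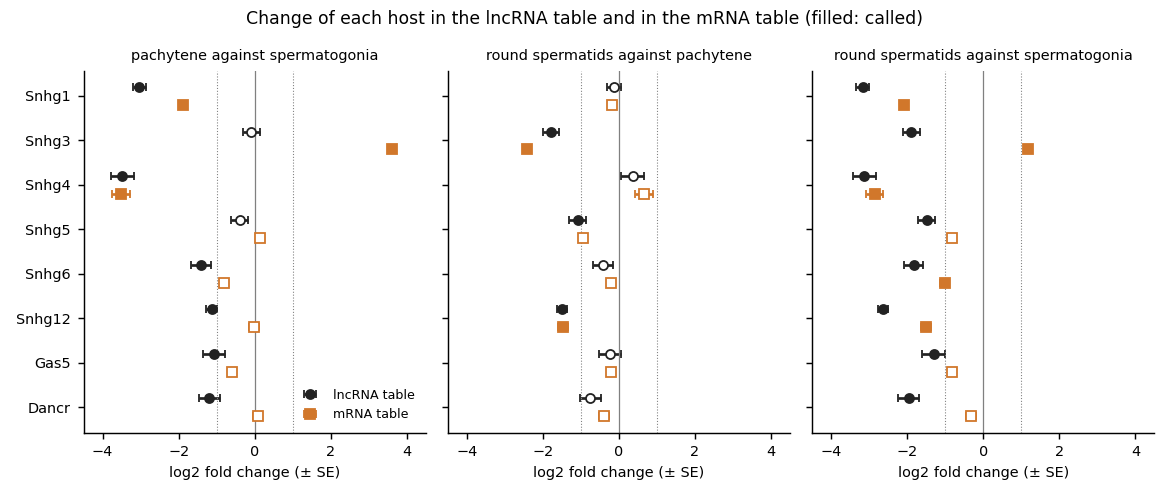
Log2 fold change of each host (x axis, with SE) in 3 comparisons, in the lncRNA table (circles) and in the mRNA table (squares); filled symbols passed the adjusted p of 0.05 and the 2-fold threshold (dotted lines). The tables differ most for Snhg3 in pachytene spermatocytes against spermatogonia, at -0.088 and 3.60; the signs of changes that did not pass, those of Snhg3, Snhg5, Snhg1 and Snhg4 in the lncRNA table and of Snhg5 and Snhg12 in the mRNA table, turned under another scaling in 1 comparison each.

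From pachytene spermatocytes to round spermatids, 3 of the 8 hosts fell in the lncRNA table and 5 did not pass the test. Of all features of that table, 9.0% were lower by this rule and 22.5% were higher. The median log2 fold change was -0.59 over the hosts and 0.38 over all features.

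The hosts that fell were Snhg3, Snhg12 and Snhg5. Snhg3 was at 688, 680.2 and 885 FPKM in round spermatids, below all pachytene libraries, with a log2 fold change of -1.80 (SE 0.212, adjusted p = 3.34e-04). Snhg12 was at 179, 207 and 190.5 FPKM, also well below its pachytene values, with a log2 fold change of -1.49 (SE 0.138, adjusted p = 1.18e-04). Snhg12 was thus the 1 host that passed the test at both steps. Snhg5 was at 487, 444 and 682 FPKM, and its highest round spermatid library was below its lowest pachytene one (log2 fold change -1.09, SE 0.223, adjusted p = 0.00631). The value of Snhg5 was close to the 2-fold threshold: it was -0.93 without pachytene replicate 3, -0.96 without round spermatid replicate 2 and -0.87 on the scale of the mRNA table.

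Snhg1 and Snhg4, which had fallen most by the pachytene stage, overlapped between pachytene spermatocytes and round spermatids. Snhg1 was at 227, 270.3 and 263 FPKM in round spermatids, within its pachytene range but for the lowest library (log2 fold change -0.13, adjusted p = 0.582). Snhg4 was at 1161, 821 and 1870.2 FPKM, with a spread of more than 2-fold between replicates and a log2 fold change of 0.36 (SE 0.303, adjusted p = 0.406). The sign for Snhg4 was negative with equal library medians (-0.29) and with quantile normalization (-0.18), and that of Snhg1 was positive on the scale of the mRNA table (0.082). Gas5 was at 1732, 1562 and 2256 FPKM, around its pachytene level (log2 fold change -0.24, adjusted p = 0.562).

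Snhg6 and Dancr were lower in every round spermatid library than in any pachytene one without passing the test. Snhg6 was at 238, 262 and 221 FPKM (log2 fold change -0.42, adjusted p = 0.248) and Dancr at 50.1, 43.0 and 63.6 FPKM (log2 fold change -0.76, adjusted p = 0.0666). Both passed with equal library medians, at -1.06 for Snhg6 and -1.41 for Dancr, and with quantile normalization, at -1.17 and -1.41.

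Across both steps, from spermatogonia to round spermatids, all 8 hosts fell in the lncRNA table. In each the round spermatid libraries were all below the spermatogonial ones. The share of all features that did so was not counted, so this separation is not read as particular to the hosts. Of all features of that table, 24.9% were lower and 37.5% were higher, and the median log2 fold change was -1.92 over the hosts and 0.19 over all features. The changes were -3.17 for Snhg1 (SE 0.175, adjusted p = 8.32e-07), -3.13 for Snhg4 (SE 0.303) and -2.63 for Snhg12 (SE 0.138). Dancr (-1.96), Snhg3 (-1.89) and Snhg6 (-1.83) made a middle group. Snhg5 (-1.48) and Gas5 (-1.31, SE 0.294, adjusted p = 0.00453) changed least. Gas5 and Snhg5 no longer passed on the scale of the mRNA table, at -0.55 and -0.72, and the other 6 did.

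Among the hosts, profiles over the 9 libraries were compared by the root mean square difference of log2 values, each centred on its own mean. The most alike were Snhg6 and Gas5 (0.30), Snhg3 and Snhg5 (0.33) and Snhg5 and Dancr (0.40). Snhg1 was most like Snhg4 (0.41), the other host with a steep early fall. The least alike were Snhg3 and Snhg4 (1.43). All points share libraries, so these are descriptions. Among 2388 other features of the lncRNA table with a mean of at least 10 FPKM, that most like Snhg12 was the row labelled mmu-mir-3061 (0.16), with 83.2 ± 4.16, 39.6 ± 8.15 and 12.7 ± 1.85 FPKM in the 3 stages. Nearest to Snhg4 was RP24-547I3.1 (0.17; 199 ± 17.8, 21.97 ± 5.31 and 25.6 ± 11.0 FPKM), and nearest to Snhg3 was 2700016F22Rik (0.19; 126 ± 9.12, 95.6 ± 21.5 and 31.5 ± 4.40 FPKM). Faddos was nearest to Gas5 (0.21), RP23-402K24.6 to Snhg1 (0.24), Gm13421 to Snhg5 (0.22), 9830144P21Rik to Snhg6 (0.22) and Gm26563 to Dancr (0.26).

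In the mRNA table, the same 8 genes were listed at lower FPKM and fewer of them changed. From spermatogonia to pachytene spermatocytes 2 fell, 1 rose and 5 did not pass the test, beside 31.0% of features lower and 36.6% higher, and the median over the hosts was -0.32 against 0.26 over all 17987 features tested. From pachytene spermatocytes to round spermatids 2 fell and 6 did not pass, beside 13.4% lower and 27.3% higher. From spermatogonia to round spermatids 4 fell, 1 rose and 3 did not pass, beside 30.1% lower and 38.5% higher.

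Snhg4 and Snhg1 fell early in this table too. Snhg4 was at 11.5, 12.8 and 11.8 FPKM in spermatogonia, at 1.40, 0.681 and 0.919 FPKM in pachytene spermatocytes and at 1.80, 1.26 and 1.71 FPKM in round spermatids. The first change was -3.52 on the log2 scale (SE 0.228, adjusted p = 3.41e-07), close to that in the lncRNA table. Snhg1 was at 14.0, 15.0 and 12.9 FPKM, then at 3.52, 3.98 and 3.53 and then at 3.61, 2.97 and 3.12 FPKM. Its first change was -1.90 (SE 0.0986, adjusted p = 6.67e-08), smaller than in the lncRNA table, and the last 2 stages overlapped.

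Snhg12 was at 17.5, 20.7 and 17.3 FPKM in spermatogonia and at 15.8, 18.6 and 20.2 FPKM in pachytene spermatocytes, fully overlapping (-0.026, adjusted p = 0.86). Its round spermatid values of 5.39, 7.23 and 6.93 FPKM were well below both, with a log2 fold change of -1.47 from pachytene spermatocytes (SE 0.133, adjusted p = 7.29e-06), as in the lncRNA table. Snhg5 was at 32.6, 34.6 and 31.1 FPKM, at 32.6, 37.5 and 37.3 FPKM and at 18.1, 17.0 and 20.8 FPKM. Round spermatids were below both other stages, and the log2 fold change at the second step was -0.94 (SE 0.0878, adjusted p = 9.22e-06), short of 2-fold. It passed that threshold with equal library medians (-1.30), without pachytene replicate 1 (-1.005) and without round spermatid replicate 3 (-1.02).

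Gas5, Snhg6 and Dancr differed by smaller amounts in this table. Gas5 was at 107, 109 and 103 FPKM in spermatogonia, at 69.1, 66.7 and 74.2 FPKM in pachytene spermatocytes and at 62.0, 55.4 and 63.6 FPKM in round spermatids. Spermatogonia replicate 3, which stood apart for Gas5 in the lncRNA table, was close to its replicates here, and the first change was -0.61 (SE 0.0647, adjusted p = 1.36e-05), below 2-fold. Snhg6 was at 20.98, 21.7 and 17.8 FPKM, at 12.3, 10.1 and 12.2 FPKM and at 9.001, 10.5 and 10.2 FPKM. Only the change over both steps passed, at -1.02 (SE 0.107, adjusted p = 1.21e-05), and it was -0.95 to -0.99 without spermatogonia replicate 1 or 2 or round spermatid replicate 1, short of the threshold. Dancr was at 2.35, 2.32 and 2.41 FPKM, at 2.66, 2.10 and 2.78 FPKM and at 1.83, 2.01 and 1.78 FPKM. Its spermatogonial values lay inside the pachytene range, and its change over both steps was -0.32 (SE 0.123, adjusted p = 0.0337), below 2-fold.

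The ratio of the value in the lncRNA table to that in the mRNA table differed between hosts. For Snhg5 it was 42.3 to 48.4 in spermatogonia, 28.4 to 37.7 in pachytene spermatocytes and 26.1 to 32.7 in round spermatids, near the median of the 76 shared features in each stage. For Snhg4 it was 595 to 1296 over all libraries, and for Snhg1 it was 141 to 187 in spermatogonia and 63.0 to 90.9 in the other libraries. For Snhg3 it was 401 to 621 in spermatogonia, 32.4 to 40.9 in pachytene spermatocytes and 48.6 to 63.6 in round spermatids. In spermatogonia it was 58.3 to 72.3 for Snhg12, 64.8 to 106.3 for Dancr, 32.4 to 49.1 for Snhg6 and 27.5 to 56.2 for Gas5. Snhg1, Snhg3 and Snhg4 are the hosts of Snord22, the Snora73 pair and Snora74a, whose own rows exist in the mRNA table and not in the lncRNA table. The snoRNAs of the other hosts have no row in the lncRNA table either. The part of the snoRNAs in the ratios was not tested.

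**Figure D3:**
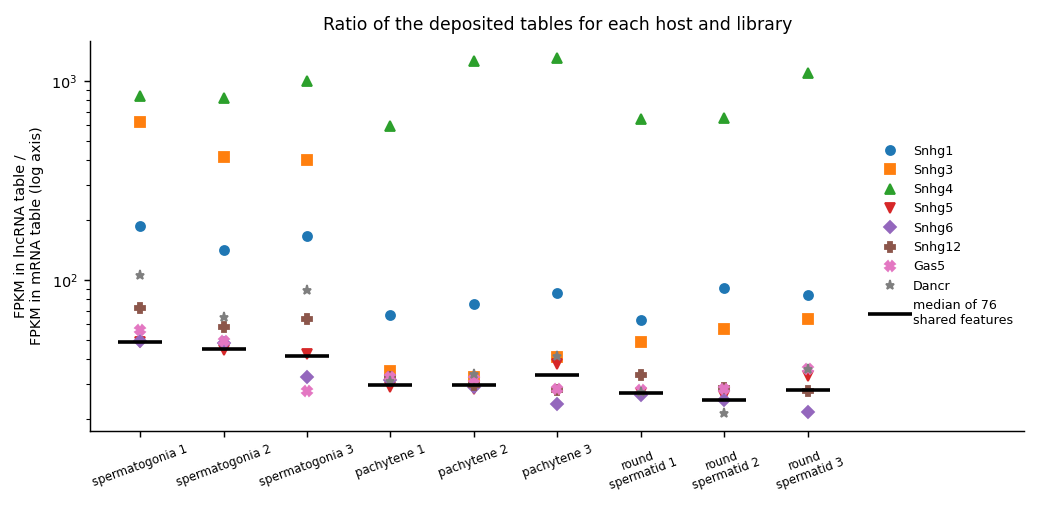
FPKM in the lncRNA table divided by FPKM in the mRNA table for each host (symbols, log axis) in each library (x axis), with the median over 76 features at the same position in both tables (black bars). Snhg4 lies at 595 to 1296 in every library, Snhg3 at 401 to 621 in spermatogonia, and the median falls from 41.3 to 48.9 in spermatogonia to 25.0 to 27.8 in round spermatids.

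Snhg3 was the 1 host with changes that passed the test in opposite directions in the 2 tables, over both steps. At the first step the signs also differed for Dancr (-1.20 in the lncRNA table, 0.077 in the mRNA table) and Snhg5 (-0.39 and 0.13), where no value in the mRNA table passed. The row of Snhg3 in the mRNA table rose from 5.42, 5.64 and 6.62 FPKM in spermatogonia to 69.5, 71.1 and 77.0 FPKM in pachytene spermatocytes, with no overlap (log2 fold change 3.60, SE 0.0921, adjusted p = 4.58e-10). It then fell to 14.2, 12.1 and 13.9 FPKM in round spermatids (log2 fold change -2.43, adjusted p = 2.71e-08). That was still above all spermatogonial libraries, by a log2 fold change of 1.17 (SE 0.0921, adjusted p = 1.38e-06), which was 0.92 with equal library medians and 0.86 with quantile normalization, short of 2-fold. The mRNA table lists Snhg3 at a wider position, chr4:132331919-132353686, which it shares with the rows of Rcc1, Gm17300, Snora73a and Snora73b.

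Rcc1, which codes for the nucleotide exchange factor of the GTPase Ran, starts 81 bp from the start of Snhg3 on the same strand. It was at 18.6, 16.5 and 13.8 FPKM in spermatogonia, at 54.5, 56.0 and 58.6 FPKM in pachytene spermatocytes and at 69.1, 73.6 and 70.3 FPKM in round spermatids. It rose at the first step (log2 fold change 1.79, SE 0.096, adjusted p = 8.22e-08) and stayed high, whereas Snhg3 fell again. Gm17300, a lincRNA in M21, followed Snhg3 in the mRNA table, with 3.29 ± 0.269, 32.3 ± 0.539 and 8.997 ± 0.640 FPKM in the 3 stages (SD, n = 3). In the lncRNA table Gm17300 went the other way at the first step, from 20493, 13529 and 13206 FPKM to 3362, 3061 and 3197 FPKM and then to 1865, 1705 and 1914 FPKM. The first change there was -2.27 (SE 0.206, adjusted p = 2.4e-05). The Snora73 rows inside Snhg3, in the mRNA table, also fell from spermatogonia to pachytene spermatocytes. Whether counting used the strand, and how fragments were divided between overlapping rows, is not given in the sources used here, so the values of Snhg3, Gm17300, Rcc1 and the Snora73 pair are uncertain as levels of separate RNAs.

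**Figure D4:**
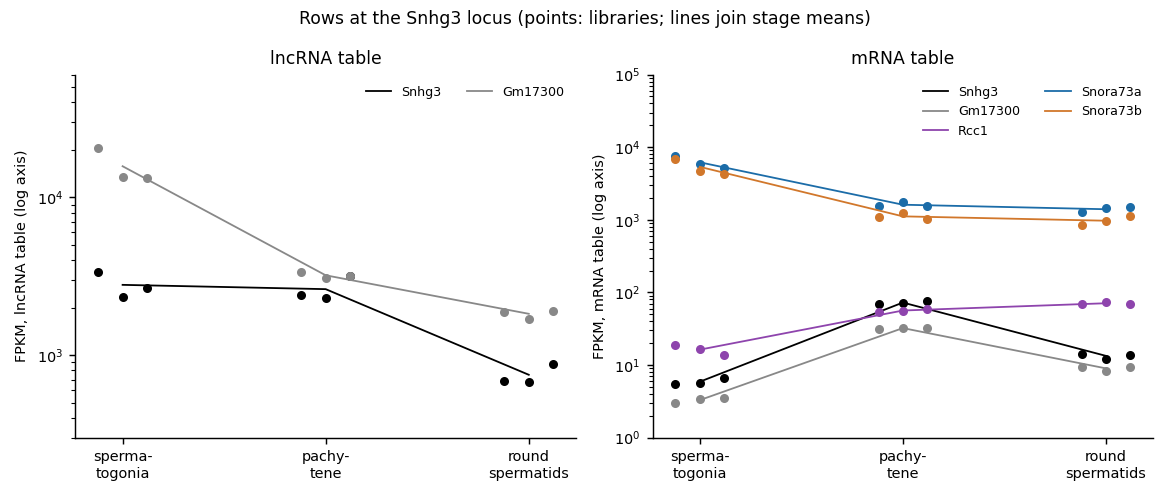
FPKM (log axes) of the rows at the Snhg3 locus in the lncRNA table (left) and the mRNA table (right), with points for libraries and lines joining stage means. Snhg3 rises from 5.42 to 6.62 FPKM in spermatogonia to 69.5 to 77.0 FPKM in pachytene spermatocytes in the mRNA table only, while Snora73a and Snora73b fall there.

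The wider positions of Snhg4, Snhg6 and Gas5 in the mRNA table are shared with coding genes. Matr3, a nuclear matrix protein gene that shares its position with Snhg4, was at 192 ± 19.0, 516 ± 13.8 and 373 ± 18.2 FPKM in the 3 stages and rose at the first step (log2 fold change 1.43, SE 0.0776, adjusted p = 8.99e-08), where Snhg4 fell. Mcmdc2, a meiotic gene of the MCM family that shares its position with Snhg6, was at 2.23 ± 0.0996, 6.87 ± 0.210 and 3.68 ± 0.334 FPKM and also rose first (1.58, SE 0.0898, adjusted p = 1.28e-07), a step at which every pachytene library of Snhg6 was below every spermatogonial one. Zbtb37, a zinc finger gene that shares its position with Gas5 and starts 427 bp from the M21 start of Gas5 on the opposite strand, was at 8.75 ± 0.781, 5.13 ± 0.626 and 5.51 ± 0.479 FPKM. Its first change was -0.76 (SE 0.111, adjusted p = 1.33e-04), below 2-fold, as was that of Gas5 in the same table (-0.61). Over both steps Zbtb37 differed by -0.66 and Gas5 by -0.82, both lower in every round spermatid library than in any spermatogonial one.

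Slc3a2, which codes for the heavy chain of amino acid transporters at the cell surface, starts 106 bp from Snhg1 on the opposite strand. It was at 40.3, 42.8 and 37.5 FPKM in spermatogonia and at 39.8, 39.9 and 39.2 FPKM in pachytene spermatocytes, overlapping, while Snhg1 fell between these stages in both tables. In round spermatids it was at 17.6, 19.1 and 17.6 FPKM (log2 fold change -1.13 from pachytene spermatocytes, SE 0.059, adjusted p = 1.92e-07), where Snhg1 did not pass the test. No coding gene of M21 starts within 5000 bp of Snhg5, Snhg6, Snhg12 or Dancr, and the nearest such start to Snhg4, that of Gm28285, has no row here.

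Of the 29 snoRNA rows inside the hosts, 20 were listed at 0 in every library and 9 were above 0 in at least 1. The rows at 0 were those of 60 to 87 nt, all 9 of Gas5, 7 of 8 in Snhg1 and those of Snhg5 and Snhg6 among them, and the rows above 0 were those of 121 to 205 nt. Among snoRNA rows of the mRNA table outside the hosts, 0 of 307 rows of up to 87 nt were above 0 in any library. The share was 4.94% of 263 rows between 87 and 121 nt, and 26.4% of 878 rows of at least 121 nt. The reads were paired and 100 bp long. A listed 0 for a short snoRNA does not show its absence, and a value above 0 does not separate the free snoRNA from the host RNA that holds its sequence.

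All 9 rows above 0 were tested in the mRNA table. From spermatogonia to pachytene spermatocytes 8 fell and 1 did not pass, beside 31.0% of all features lower and 36.6% higher. From pachytene spermatocytes to round spermatids none passed, beside 13.4% lower and 27.3% higher. Over both steps 7 fell and 2 did not pass, beside 30.1% lower and 38.5% higher. Snord22 in Snhg1 was the highest, with 12823, 9663 and 7764 FPKM in spermatogonia and 1785, 1977 and 1961 FPKM in pachytene spermatocytes. It was at 2087, 2433 and 2119 FPKM in round spermatids, so only the first step separated the stages by more than 2-fold (log2 fold change -2.37, SE 0.176, adjusted p = 9.15e-07).

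In Snhg3, Snora73a was at 7670.4, 5806 and 5088 FPKM in spermatogonia, at 1537, 1733 and 1569 FPKM in pachytene spermatocytes and at 1271, 1440.4 and 1481 FPKM in round spermatids. Its first change was -1.92 (SE 0.152, adjusted p = 1.51e-06), and that of Snora73b was -2.24 (SE 0.185, adjusted p = 2.05e-06), from 5359 ± 1419 to 1115 ± 100.4 FPKM. These falls stand beside the rise of the Snhg3 row in the same table. In Snhg4, Snora74a was at 1797, 1730.2 and 1964 FPKM, then at 265, 269.7 and 244 FPKM and then at 412, 289.7 and 351 FPKM, with a first change of -2.82 (SE 0.12, adjusted p = 1.62e-08). The other row inside Snhg4, named Mir1949 in the table and typed as a snoRNA in M21, went from 683 ± 76.1 to 55.4 ± 7.90 FPKM (-3.63, SE 0.116, adjusted p = 2.14e-09). Both moved in the direction of Snhg4.

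In Snhg12, Snora44 was at 631, 446 and 663 FPKM in spermatogonia, at 56.4, 56.2 and 55.0 FPKM in pachytene spermatocytes and at 61.0, 71.1 and 35.8 FPKM in round spermatids. It fell first, by a log2 change of -3.35 (SE 0.24, adjusted p = 7.02e-07), a step at which its host did not pass the test in the mRNA table. Snora61 was at 170.3, 92.2 and 63.7 FPKM, then listed at 0, 10.2 and 21.2 FPKM and then at 41.0, 21.4 and 11.0 FPKM, and its first change passed (adjusted p = 0.0177); no fold is given because 1 pachytene library is listed at 0. Snora16a, also in Snhg12, was at 30.5, 21.2 and 8.09 FPKM in spermatogonia, with libraries at 0 in both later stages, and did not pass at any step. Snora26 in Dancr was at 1071, 705 and 1263 FPKM, at 210.0, 337 and 377 FPKM and at 157, 148 and 152 FPKM. Each stage lay below the one before, and the first change was -1.72 (SE 0.248, adjusted p = 1.20e-04), while the second was -0.97 (adjusted p = 0.006), just short of 2-fold.

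**Figure D5:**
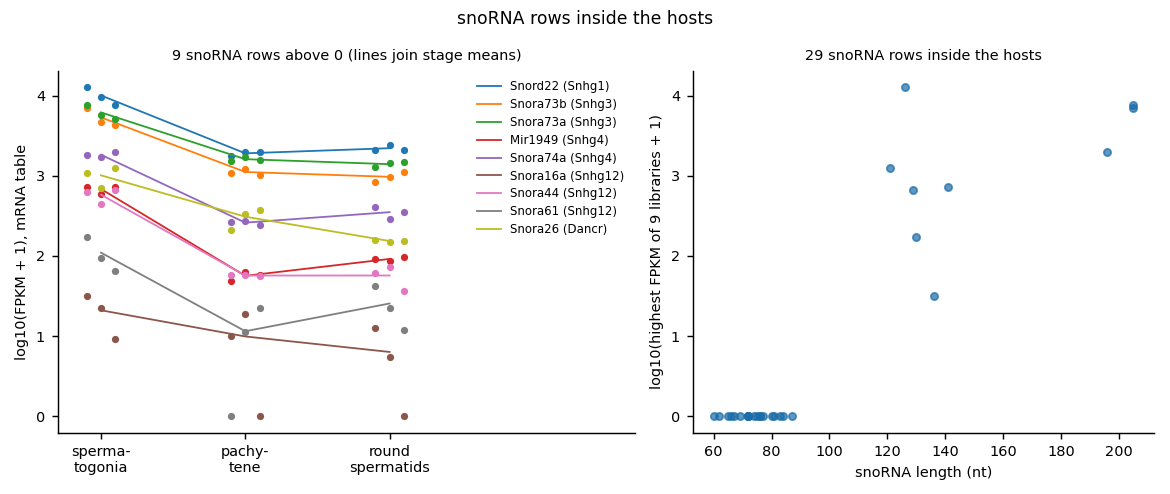
Left, log10(FPKM + 1) in the mRNA table of the 9 snoRNA rows inside the hosts that were above 0, by stage (points for libraries, lines through stage means, host in brackets). Right, the highest of 9 libraries on the same scale against snoRNA length for all 29 rows: the 20 rows of 60 to 87 nt lie at 0 and the 9 rows of 121 to 205 nt lie above it.

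Of 13 other lncRNA hosts of snoRNAs, 8 had a row in the lncRNA table, and all 8 were tested. From spermatogonia to pachytene spermatocytes 3 were lower and none was higher, beside 25.0% and 31.6% of all features of that table. Snhg18 went from 188 ± 14.9 to 15.8 ± 1.87 FPKM (log2 fold change -3.57), Snhg20 changed by -2.96 and Snhg15 by -1.16. From pachytene spermatocytes to round spermatids 2 were lower, Snhg7 (-2.06) and Snhg18 (-1.35), beside 9.0% of all features. Over both steps 4 were lower and 1 higher, beside 24.9% and 37.5%, with a median of -1.34. The higher one was Snhg9, listed at 0, 0 and 90.0 FPKM in spermatogonia and at 379, 228 and 75.7 FPKM in round spermatids. The highest spermatogonial library of Snhg9 was thus above its lowest round spermatid library. Of the 13, 6 had a row in the mRNA table. From spermatogonia to pachytene spermatocytes 3 of them were lower there, Snhg11 (-3.90), Snhg18 (-2.86) and Snhg14 (-1.08), beside 31.0% of all features. The 2 that were higher, beside 36.6%, were Snhg9, listed at 0, 0 and 3.04 FPKM in spermatogonia, and Snhg7. Snhg7 rose from 4.37 ± 0.149 to 9.02 ± 0.973 FPKM (log2 fold change 1.02, adjusted p = 1.53e-05). It did not pass at that step in the lncRNA table. Over both steps 4 were lower and 1 higher in the mRNA table, beside 30.1% and 38.5%.

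Coding genes that host snoRNAs are mostly genes of ribosomal proteins and translation factors, and were read in the mRNA table. Of 25 such genes, 7 were lower and 2 higher in pachytene spermatocytes than in spermatogonia, beside 31.0% and 36.6% of all features, and the median change was -0.71 on the log2 scale. The share lower was thus no larger than that of all features. The steepest falls were those of Ncl, which codes for nucleolin (108.7 ± 7.04 to 9.11 ± 0.0809 FPKM, -3.56), and Nop56, a protein of the box C/D particle (72.3 ± 4.75 to 9.42 ± 0.525 FPKM, -2.93). Those that rose were Rcc1 and Hspa9 (1.39), a mitochondrial chaperone gene. From pachytene spermatocytes to round spermatids 2 were lower and none higher, beside 13.4% and 27.3% of all features, and over both steps 11 were lower and 3 higher, beside 30.1% and 38.5%.

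The proteins that bind snoRNAs changed in both directions. Of 9 core proteins of snoRNA particles, 4 were lower and 1 higher in pachytene spermatocytes than in spermatogonia, beside 31.0% and 36.6% of all features, with a median of -0.82. Dkc1, the pseudouridine synthase of H/ACA particles, fell from 16.5, 15.9 and 14.3 FPKM to 0.964, 0.827 and 0.818 FPKM (log2 fold change -4.01, SE 0.176, adjusted p = 1.93e-08). Fbl, the methyltransferase fibrillarin of box C/D particles, fell from 53.6 ± 6.42 to 17.4 ± 0.494 FPKM (-1.61), and Nhp2 fell by -1.69 on the log2 scale. Nop10, a small H/ACA protein, rose from 26.9 ± 1.299 to 135.8 ± 5.83 FPKM (2.33). Over both steps 4 were lower and 1 higher, beside 30.1% and 38.5%, and the median, 0.37, had the opposite sign to most of the calls.

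Of 10 assembly factors of these particles, 4 were higher and 1 lower in pachytene spermatocytes than in spermatogonia, with a median of 0.67. The share higher was near that of all features, 36.6%, and 31.0% of all features were lower. Ruvbl2, an ATPase of the R2TP complex, rose from 12.5 ± 1.31 to 123.7 ± 4.36 FPKM (3.31), Pih1d1 of the same complex rose by 3.14 and Znhit3 by 3.00 on the log2 scale. Shq1, a chaperone of Dkc1, fell from 12.7 ± 1.49 to 2.42 ± 0.0569 FPKM (-2.34) and rose again to 10.5 ± 0.0701 FPKM in round spermatids (2.07). Ruvbl2 and Pih1d1 also serve other complexes.

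Of 10 factors of nonsense-mediated decay, 5 were higher and 1 lower in pachytene spermatocytes than in spermatogonia, with a median of 0.996, beside 36.6% of all features higher and 31.0% lower. Smg9 rose from 6.98, 6.61 and 5.79 FPKM to 214, 218 and 219 FPKM (log2 fold change 5.05, SE 0.0759, adjusted p = 1.37e-11), Upf3a from 9.45 ± 1.27 to 143 ± 3.78 FPKM (3.91) and Smg5 from 17.4 ± 1.15 to 124.4 ± 3.96 FPKM (2.83). Upf1, the helicase at the centre of the pathway, rose from 16.0 ± 1.33 to 57.1 ± 1.05 FPKM (1.83) and fell to 13.1 ± 0.830 FPKM in round spermatids (-2.11). Upf3b was the 1 that fell first, from 3.84 ± 0.139 to 1.57 ± 0.348 FPKM (-1.26). Over both steps 6 were higher and none lower, beside 38.5% and 30.1%. Whether these levels bear on those of the hosts was not tested.

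The authors' deposited tables of changed features list 6 of the 8 hosts in the lncRNA comparison of pachytene spermatocytes with spermatogonia, namely Gas5, Snhg6, Snhg4, Snhg1, Snhg12 and Dancr, each at a q-value of 1.08e-04. For round spermatids against pachytene spermatocytes, the authors' deposited table lists Snhg3, Snhg12, Snhg5, Dancr, Snhg6 and Snhg4, the last with a log2 fold change of 0.42 and a q-value of 0.0122. In the authors' deposited tables for the mRNA comparisons, 5 hosts are listed at the first step, Snhg3 with a log2 fold change of 3.62, and 3 at the second, Snhg12, Snhg3 and Snhg5.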

How the data were processed

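Per the labels' protocols, total RNA was made into strand-specific Illumina TruSeq libraries and read in pairs of 100 bp; per the submitters' processing notes, TopHat2 2.0.12 and Cuffdiff 2.2.1 were used on mm10, beside FastQC and Trim Galore. The authors deposited FPKM per feature and library in 2 separately scaled tables, and lists of changed features with a log2 fold change, a p-value and a q-value. Annotation release, strand setting and options: not given in the sources used here. For the lncRNA table, the deposited log2 column of the first step holds spreadsheet errors and was not used.

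Members, lists and tests were chosen with earlier results of these data known. Values were taken as log2(FPKM + 0.1), which understates changes of low features, with a filter of 0.5 FPKM in 3 or more libraries, and 1 limma 3.58.1 model (R 4.3.3, mean trend, all 9 libraries) was fitted per table. A call needs a Benjamini-Hochberg adjusted p under 0.05 together with a log2 fold change of 1 or more in either direction. The fit was tested on simulated data. Left out were 31 features of the mRNA table that lack a value in some library. Every host is named; from each other list, at most 4 called genes with the largest change per comparison are, with exceptions to a count. Gm17300 in the lncRNA table was added after its values were seen. Alternatives were another pseudocount (1 or 0.01), no filter or 5 FPKM, equal library medians, quantile normalization, the 2 stages alone, the replicate number as a block, no mean trend, adjusted p alone, and each library left out.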

Additional observations from a re-analysis of the deposited data

How the results depend on the processing

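Of 933 values of single hosts under an alternative, 883 kept their direction and their side of the threshold. Of the rest, 23 came to pass it, 17 no longer passed and 10 turned sign, none of the 10 passing the threshold before or after. Settings that alter only the filter, trend, block, stages fitted or threshold, or leave out a library of the stage not compared, cannot change the log2 fold change. The 883 thus include values whose direction could not turn. Some of the 23 passed by adjusted p alone, which drops the 2-fold threshold. In the lncRNA table, Snhg3 in pachytene spermatocytes against spermatogonia turned to 0.055 without spermatogonia replicate 1 (-0.23 to 0.055 over the libraries left out) and to 0.45 on the scale of the mRNA table, Snhg5 turned to 0.15 on that scale, and in round spermatids against pachytene spermatocytes Snhg1 turned to 0.082 on it and Snhg4 to -0.29 with equal library medians and -0.18 with quantile normalization. At the first step in the mRNA table, Snhg5 turned to -0.998 with quantile normalization, and Snhg12 to 0.080 with equal library medians, 0.057 without spermatogonia replicate 2 and 0.072 without pachytene replicate 1 (-0.10 to 0.072 over the libraries left out).

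The number of hosts changed in the lncRNA table was 2 in place of 6 at the first step on the scale of the mRNA table, and 5 in place of 3 at the second with equal library medians and with quantile normalization. In the mRNA table it was 5 in place of 3 at the first step with quantile normalization and by adjusted p alone, and by adjusted p alone 6 in place of 2 at the second and 8 in place of 5 over both. Leaving out each library gave 5 to 6, 2 to 3 and 8 hosts for the 3 comparisons in the lncRNA table, and 3, 2 to 3 and 4 to 5 in the mRNA table.

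Scaling moves all features: in the lncRNA table the median log2 change of all features at the first step was -0.019 as deposited, -0.39 with equal medians, -0.69 with quantile normalization and 0.36 on the scale of the mRNA table, at the second 0.38, -0.26, -0.21 and 0.59, and over both 0.19, -0.83, -1.11 and 0.90. Features higher and lower there went from 902 and 361 at the second step to 706 and 764 with equal medians, and from 1505 and 1000 over both to 1248 and 1495. For the mRNA table, quantile normalization took them from 6584 and 5570 to 5223 and 6435 at the first step.

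Deviations of libraries with the same replicate number correlated at -0.106 to 0.099, and those with different numbers at -0.078 to 0.116. No pairing by number was seen, but 3 libraries a stage cannot exclude it. With the replicate number as a block, 6, 3 and 8 hosts changed in the lncRNA table and 3, 2 and 5 in the mRNA table, as without it.

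These are 3 libraries a stage, levels are relative, the depth behind them is an estimate, and short snoRNAs are not covered by these rows.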
